A study of Mus musculus with 18 samples.

Results

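The comparison described here set bone marrow stromal samples of mice on a high-fat diet with glutamine against those of mice on the same diet alone. It holds 9 of the 18 libraries of the study, 4 of the HFD arm and 5 of the HFD arm with glutamine. Of 46983 gene names in the marrow table, 6041 passed the count filter and make up the comparison. The other 9 libraries are stromal samples of visceral fat and are used only as a reference. The animals were males of the inbred strain C57BL/6J, and the HFD label stands on both arms, so a normal diet is not part of the comparison. The titles name the marrow samples mBMSC and the tissue label is Bone Marrow. The genotype label reads Ctrl in one arm and Glutamine in the other, and no engineered allele is named. The sources used here do not give the dose, route or duration of glutamine, the age of the mice or the way the stromal cells were obtained. Each library carries a pair of numbers that the labels do not explain. Whether libraries within an arm stem from different animals is not stated, so each p-value reflects the spread among these libraries, and part of that spread may be technical. One column of the glutamine arm has the number pair 13_17, found in no title, and is called the unnumbered glutamine library. It shares the number 17 with HFD 14_17 and the number 13 with the pair 13_15. That pair labels a marrow glutamine sample without a column under its own numbers, and whether the column is that sample is not stated. The series title names obese mice, glutamine and skeletal strength as its subject.

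Bone marrow stromal cells line the sinusoids and the bone surface and give rise to osteoblasts, which lay down the collagen I matrix of bone, and to marrow adipocytes. They also make the chemokine CXCL12, which holds blood-forming cells in the marrow. Glutamine is an amino acid that cells use for protein, for nucleotides and for fuel in the citric acid cycle, and collagen, rich in proline, draws on it through glutamate. RNA was measured by 3′ sequencing, in which a read marks the poly(A) end of a transcript, so levels are given as CPM, counts scaled to a common library total, with no division by gene length.

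Few genes were captured in most of these marrow libraries. A gene is called captured in a library here if it had at least 100 counts. Captured genes per marrow library ran from 1755 in HFD library 23_28 to 7323 in glutamine library 18_20, with a median of 3636, while total counts ran from 13970788 to 37984603. The visceral fat libraries held 11361 to 14469 captured genes each. Of 10376 genes captured in any marrow library, 263 were captured in all 9 and 3239 in exactly 1, and 1325 of the latter were in glutamine library 18_20. Captured genes shared by 2 libraries, as a share of the pair's union, were 20.3% to 36.7% within HFD (6 pairs, median 24.5%) and 19.8% to 36.9% within glutamine (10 pairs, median 29.9%). Pairs across arms shared 18.5% to 40.8% (20 pairs, median 26.1%), a range that overlaps both. The unnumbered glutamine library and HFD 14_17, which have a number in common, shared 23.0%, within the 19.5% to 24.0% of that library with each of the other 7. The 2 libraries with the fewest captured genes, HFD 23_28 and the unnumbered glutamine library with 1831, lie in different arms.

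**Figure D1:**
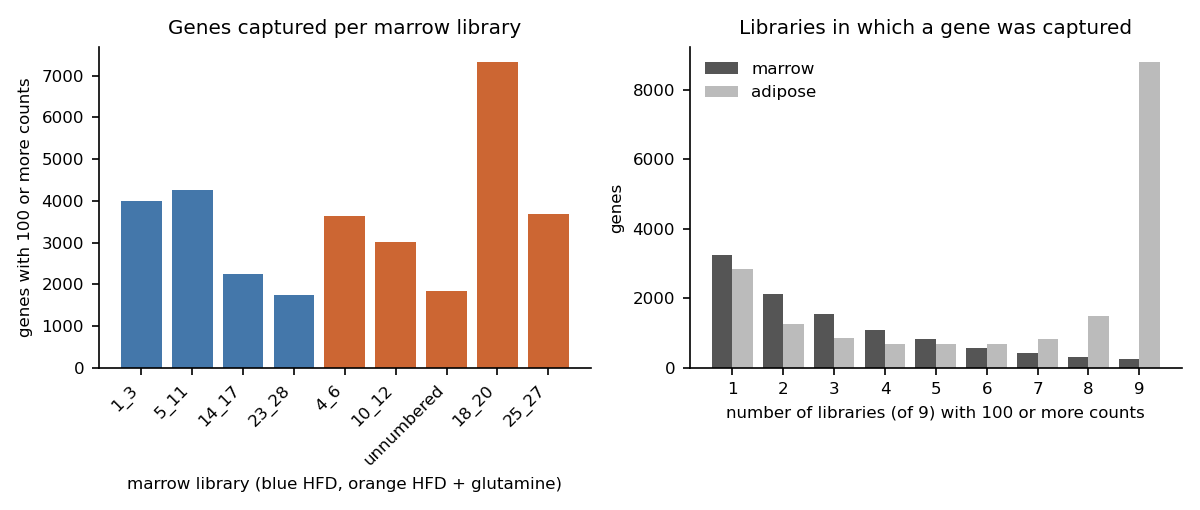
Left, genes with at least 100 counts in each marrow library, the 4 HFD libraries in blue and the 5 glutamine libraries in orange. Right, the number of genes captured in exactly 1 to 9 libraries of marrow (dark) and visceral fat (light); marrow has its highest bar at 1 library, with 3239 genes, and fat at 9 libraries, with 8790.

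Collagen I and osteonectin carried the markers of bone-forming cells. The 19 osteoblast markers summed to 143310, 273420, 339310 and 73540 CPM in HFD libraries 1_3, 5_11, 14_17 and 23_28, and to 150670, 259810, 191690, 257200 and 98784 CPM in glutamine libraries 4_6, 10_12, unnumbered, 18_20 and 25_27. This order of libraries is kept in all values that follow. The arms overlapped, and the lowest sum was that of HFD 23_28. Col1a1, Col1a2 and Sparc, which other stromal cells also make, held 95.5% to 96.5% of the sum in HFD libraries and 91.2% to 96.0% in glutamine libraries. The other 16 markers summed to 5562, 9504, 14999 and 3310.5 CPM with HFD and 13210, 10363, 12067, 13299 and 4277 CPM with glutamine. All 19 osteoblast markers were captured in at least 1 library and 7 in all 9. The 14 markers of marrow niche stroma, the perivascular cells that support blood-forming cells, summed to 17245, 5636, 5169 and 4947 CPM with HFD and 8202, 8563, 8506, 8602 and 2816 CPM with glutamine, and all were captured in at least 1 library.

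Blood-cell genes were read too. The 16 neutrophil markers summed to 6895, 4668, 5553 and 57283 CPM with HFD and 9629, 3146, 21259, 7642 and 26910 CPM with glutamine, so that HFD 23_28 stood far above the other 3 of its arm. In HFD 1_3, HFD 23_28, the unnumbered glutamine library and glutamine 25_27 the neutrophil sum was above that of the 16 osteoblast markers other than Col1a1, Col1a2 and Sparc. Erythroid markers summed to 5932 to 18497 CPM with HFD and 5537 to 8699 CPM with glutamine. Of 10 T and NK cell markers 8 were captured in no library, and of 10 B and plasma cell markers 7. Of 8 endothelial markers 5 were captured in no library, and the highest endothelial sums were 722 CPM in HFD 23_28 and 259 CPM in glutamine 10_12. In bulk samples fewer cells of a type and less RNA per cell cannot be told apart.

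**Figure D2:**
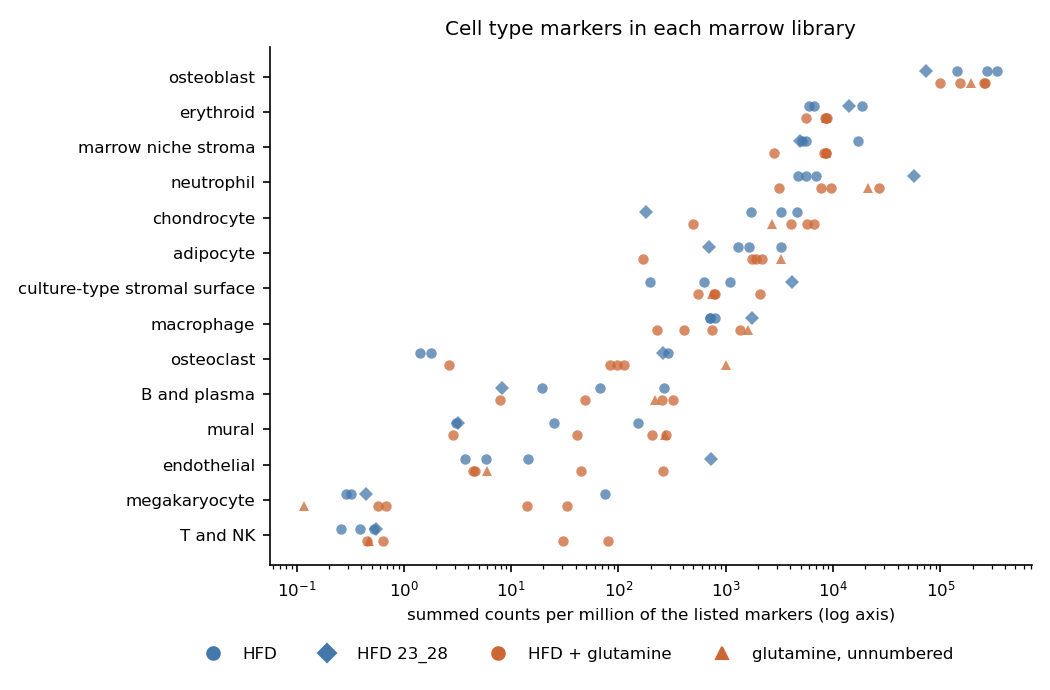
Summed CPM of the listed markers of 14 cell types in each marrow library (log axis), HFD in blue and glutamine in orange; the diamond is HFD 23_28 and the triangle the unnumbered glutamine library. Osteoblast markers lie highest in every library, with at least 91.2% of their sum from Col1a1, Col1a2 and Sparc, and HFD 23_28 has the lowest osteoblast sum and the highest neutrophil sum.

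The genes seen in nearly every library were taken first. The 300 named genes with the highest mean of log2(CPM + 1) over all 9 libraries were called abundant. They held 36.7% to 53.8% of the counts of HFD libraries and 36.7% to 46.3% of those of glutamine libraries, and 194 were captured in all 9 libraries, 99 in 8 and 7 in 7. Even so, their levels varied widely within an arm: the median within-arm SD of log2(CPM + 1) was 1.80, against 0.262 for the same genes in visceral fat.

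The most abundant genes were those of bone matrix, with a nuclear RNA, actin, ribosomal proteins and blood-cell proteins among them. Col1a1 and Col1a2, the alpha 1 and alpha 2 chains of collagen I, stood at medians of 142450 and 43764 CPM with HFD and 133600 and 26235 CPM with glutamine. Sparc, the collagen-binding protein osteonectin, ran from 7633 to 32544 CPM with HFD and 9191 to 30943 CPM with glutamine. Malat1, a nuclear long noncoding RNA, ran from 6762 to 9657 CPM with HFD and 8871 to 14515 CPM with glutamine. Ibsp, the bone sialoprotein of mineralizing osteoblasts, spanned 849.7 to 3199 CPM and 346 to 4481 CPM, with its lowest value in glutamine 25_27. In none of the 20 did the arms separate.

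**Figure D3:**
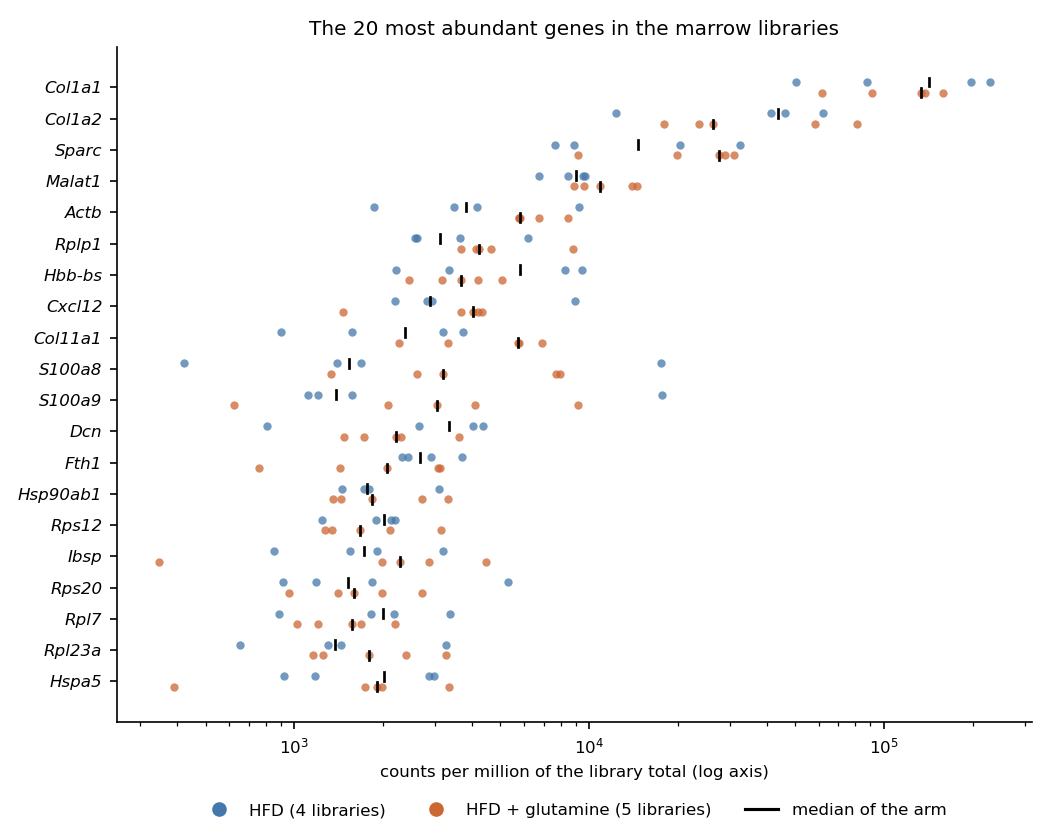
CPM of the 20 most abundant genes in each marrow library (log axis), HFD in blue, glutamine in orange, with a bar at the median of each arm. The arms overlap for all 20 genes, and S100a8 and S100a9 have 1 HFD library, 23_28, at 17468 and 17730 CPM.

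Across all 6041 genes that passed the count filter, 8 differed between the arms (edgeR, adjusted p under 0.05, 0.132% of the genes tested), all lower with glutamine. Among the 300 abundant genes none passed, and the lowest adjusted p was 0.0737. At an unadjusted p under 0.05 there were 7 abundant genes (2.33%), all lower. Over all genes tested the share at that level was 18.7%, made up of 6.82% lower and 11.8% higher. DESeq2 called 727 genes, 8 of them abundant, and limma-voom 1, which was abundant. No gene passed with any of 4 other scalings, nor without glutamine library 4_6, 10_12, 18_20 or 25_27. The median size of a fitted change among the abundant genes was 0.854 on the log2 scale with a median SE of 1.50, and over all genes tested it was 1.84 with a median SE of 2.30. On counts simulated with the fitted dispersion of each gene, edgeR recovered 0% of 16-fold changes. A gene without a call may therefore still differ between the arms.

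The balance of directions depended on the scaling of the libraries. With TMM factors, which ran from 0.460 in HFD 23_28 to 1.87 in glutamine 18_20, 222 of the 300 abundant genes were fitted lower with glutamine, a median of -0.63, beside 3225 lower of 6041 and a median of -0.22 over all genes tested. With total counts alone 146 were fitted lower and 154 higher, at a median of 0.03 beside 0.27 over all genes. With relative log expression factors 227 were lower, with upper-quartile factors 200 and with factors from the abundant genes 171. Medians of gene lists are therefore given relative to the median of all genes tested, with their range over the 5 scalings and over the 9 fits that each leave out 1 library. On that measure the 300 abundant genes as a whole stood at -0.41 (-1.01 to -0.25 over 5 scalings). A list with many abundant members is to be read beside that value. Log2 fold changes below are glutamine minus HFD from the TMM fit.

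Measures that borrow no spread from other genes gave no abundant gene past the threshold, though they could hardly have passed single genes. The levels in CPM of the arms did not overlap for 2 of the 300 abundant genes (0.667%), 1 higher and 1 lower with glutamine. Over all genes tested the share was 3.77%, with 3.53% higher and 0.248% lower. In exact two-sided permutation tests over the 126 ways to assign the 9 libraries, 18 of the 300 had p under 0.05, a share close to that level. The smallest p this design allows, 0.0159, was reached by 2, which were the 2 genes without overlap. Arms without overlap always give that p. The share of 0.667% without overlap lay below 0.0159, the rate at which it would arise with no difference between arms. The lowest value adjusted over the 300 was 0.794. After that adjustment a gene at the smallest p passes only if many others reach it too. The permutation tests therefore could not decide whether single genes differed.

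Collagen I was fitted lower with glutamine without passing the threshold. Col1a1 (chromosome 11, 94936224 to 94953042) took 8.74%, 19.8%, 23.0% and 5.03% of the counts of the HFD libraries and 9.07%, 13.8%, 13.4%, 15.8% and 6.18% of those of the glutamine libraries. HFD held both the highest shares and the lowest, and the glutamine shares lay inside the HFD range. The fitted log2 fold change was -0.80 ± 0.21 (SE, edgeR adjusted p = 0.0737), and the exact permutation p was 0.857. That SE borrows spread from other genes and is not the spread of Col1a1 alone, which ran from 50299 to 229650 CPM within HFD. Malat1, at 6762 to 9657 CPM within HFD, had a larger SE of 0.59. Over the fits without 1 library the fold change of Col1a1 ran from -1.23 without the unnumbered glutamine library to -0.15 without HFD 14_17. It passed without HFD 1_3, HFD 23_28 or the unnumbered glutamine library. Col1a1 was also the 1 call of limma-voom (-1.06, adjusted p = 0.00627). Col1a2 (chromosome 6, 4504814 to 4541544) stood at 41487, 46041, 62117 and 12297 CPM with HFD and 17895, 80763, 26235, 58302 and 23544 CPM with glutamine, overlapping throughout, with a fold change of -0.55 ± 0.35. Its mean CPM, without TMM factors, was not lower with glutamine, at 40485 with HFD and 41348 with glutamine. Without the 2 libraries with the fewest captured genes Col1a1 and Col1a2 both passed, at -1.46 and -0.94 (edgeR adjusted p = 2.46e-38 and 0.00146). Those p-values rest on a fitted dispersion that borrows spread from other genes, and the levels still overlapped.

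No other matrix gene of the lists was called. Of 15 collagen genes in the list all were tested, 5 fitted higher and 10 lower, none called, with a median of -0.34 relative to all genes (-0.40 to 0.02 over 5 scalings, -1.05 without HFD 23_28 to 0.10 without glutamine 25_27). Col11a1, a minor fibrillar collagen of bone and cartilage, had 1573, 3187, 3731 and 898 CPM with HFD and 6895, 3308, 5799, 5723 and 2258 CPM with glutamine. Its 3 highest libraries were of the glutamine arm and its 2 lowest of the HFD arm, with a fold change of 0.52 ± 0.86 (SE) and an exact permutation p of 0.0794. Col5a2, another fibrillar chain, ran from 686 to 3059.9 CPM with HFD and 854 to 1324 CPM with glutamine. Of 20 matrix glycoprotein and proteoglycan genes 18 were tested, 8 higher and 10 lower, none called.

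Among the small proteoglycans and matrix glycoproteins, Dcn (decorin, which binds collagen fibrils) had a fold change of -0.88 ± 0.95 (SE) and Bgn (biglycan) -0.11 ± 1.23. Fn1, fibronectin, stood at -0.10 ± 1.06 and Mgp, matrix Gla protein, an inhibitor of mineralization, at 0.16 ± 1.20. Bglap, osteocalcin, had 8.45, 1419, 5865 and 899 CPM with HFD and 2278, 157, 2512, 2591 and 871 CPM with glutamine. Its lowest and its highest library were both of the HFD arm, and the values are uncertain because a near-identical copy lies beside it.

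Cartilage genes were lowest in HFD 23_28, where the chondrocyte markers summed to 180.4 CPM, against 491 to 6603 CPM in the other 8 libraries. Chad, chondroadherin, a leucine-rich matrix protein of cartilage and bone (chromosome 11, 94565047 to 94569127), had 301, 689, 421 and 13.5 CPM with HFD and 1697, 1164, 1869.9, 1158 and 114 CPM with glutamine. In 4 of 5 glutamine libraries it lay above every HFD library, and in glutamine 25_27 it lay below 3 of them. The fold change was 1.59 ± 1.43 (SE, edgeR adjusted p = 0.657, exact permutation p = 0.175). Acsf2 overlaps Chad on the opposite strand. Cilp, a cartilage intermediate layer protein, had 346, 105, 827 and 3.67 CPM and 1129, 744, 2570.0, 412 and 334 CPM, again with its lowest value in HFD 23_28, and its fold change was 1.46 ± 1.41. Without the 2 libraries with the fewest captured genes Cilp turned to -0.31. Col2a1, the main collagen of cartilage, had 1434, 1197, 1076 and 3.58 CPM and 3709.6, 1535, 712, 1779 and 77.2 CPM. Of 12 chondrocyte markers 9 were tested, 6 higher and 3 lower, none called. Their median relative to all genes was 1.18 (0.48 to 1.93 over 5 scalings, 0.41 without HFD 23_28 to 2.29 without HFD 1_3), and 0.04 without the 2 libraries with the fewest captured genes.

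Genes of the marrow niche did not pass the test. Cxcl12 (chromosome 6, 117168535 to 117181367) had 8921, 2940.2, 2813 and 2200.4 CPM with HFD and 4022, 4212, 3673, 4339.6 and 1464 CPM with glutamine, with HFD 1_3 highest and glutamine 25_27 lowest, and a fold change of -0.57 ± 0.84 (SE). Of 14 niche markers 13 were tested, 3 higher and 10 lower, at a median of -0.36 relative to all genes (-0.76 to -0.34 over 5 scalings, -0.88 without HFD 5_11 to 0.09 without glutamine 25_27). Ebf3 and Foxc1, transcription factors of these cells, had fold changes of -1.40 ± 1.61 and -1.25 ± 1.70. Igfbp5, a binding protein of insulin-like growth factors, was at 4.72 CPM in HFD 23_28 and at 540.5 to 2653 CPM in the other HFD libraries.

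Neutrophil genes were mostly fitted lower with glutamine, and the median of the list turned higher without HFD 23_28. Neutrophils and their marrow precursors carry the alarmin pair S100A8 and S100A9 and the granule proteins CAMP and NGP. S100a8 (chromosome 3, 90668978 to 90670035) had 1677, 1396, 421 and 17468 CPM with HFD and 2599, 1329, 7739, 3202 and 7950.3 CPM with glutamine. S100a9 (chromosome 3, 90692632 to 90695721) followed it, with 1116, 1207, 1570.4 and 17730 CPM and 3043, 626, 4099.7, 2074 and 9165 CPM. The median was higher in the glutamine arm for both, while the highest value was that of HFD 23_28. The fold changes were -1.13 ± 0.68 and -1.61 ± 0.70 (SE, edgeR adjusted p = 0.381 and 0.198).

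Camp (chromosome 9, 109847379 to 109849617) had 706, 397, 2037 and 5178 CPM with HFD and 124, 3.94, 622, 545 and 3219 CPM with glutamine, with HFD 23_28 highest and glutamine 10_12 near the floor. Ngp had 2035, 499, 598 and 8842 CPM and 1156, 629, 3633, 895 and 2322 CPM, and here too HFD 23_28 was highest. Mpo, the myeloperoxidase of early granules, had 33.1, 482, 251 and 3368 CPM and 785, 4.44, 1805, 50.4 and 1064 CPM. Of 16 neutrophil markers 12 were tested, 2 higher and 10 lower, none called, at a median of -0.97 relative to all genes (-2.55 to -0.66 over 5 scalings, -1.74 without the unnumbered glutamine library to 1.29 without HFD 23_28). Without HFD 23_28 S100a9 turned to 1.19.

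The stretch before the RefSeq start of S100a8, S100a9, Camp and Ngp is shown because all of them were highest in the same library, HFD 23_28. The 120 bases upstream of the RefSeq start are RefSeq sequences of GRCm38.p6, read 5′ to 3′ on the strand of the gene. That start lies 93, 161 and 61 bases inside the GENCODE gene of S100a8, Camp and Ngp and on its first base in S100a9, so the windows of the former 3 overlap the gene positions given here, which are those of GENCODE. All 4 genes had an entry. Capitals mark TATAAA or CCAAT on either strand (TTTATA or ATTGG when the match is on the other strand), the only letters searched.
S100a8, chr3:90668951-90669070, plus strand: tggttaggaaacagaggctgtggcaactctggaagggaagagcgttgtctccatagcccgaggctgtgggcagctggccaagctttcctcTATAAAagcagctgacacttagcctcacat
S100a9, chr3:90695722-90695841, minus strand: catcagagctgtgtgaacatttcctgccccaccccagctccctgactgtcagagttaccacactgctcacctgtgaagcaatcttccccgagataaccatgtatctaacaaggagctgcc
Camp, chr9:109849457-109849576, minus strand: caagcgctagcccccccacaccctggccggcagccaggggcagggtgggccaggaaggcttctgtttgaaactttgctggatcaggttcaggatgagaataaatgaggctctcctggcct
Ngp, chr9:110419688-110419807, plus strand: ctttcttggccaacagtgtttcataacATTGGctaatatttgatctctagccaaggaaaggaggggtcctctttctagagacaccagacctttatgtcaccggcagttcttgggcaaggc
TATAAA began 30 bases before the RefSeq start of S100a8 (position -30) and was in none of the other 3 windows, while CCAAT was in the window of Ngp only (position -93). Over the 32817 promoters of the table, windows of this length held TATAAA in 6.35% and CCAAT in 21.3%, each counted on either strand. A match is a description of letters, not a binding site.

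Red-cell genes were also mostly fitted lower. Hbb-bs, an adult beta globin (chromosome 7, 103826534 to 103828096), had 2219.9, 3339, 9461 and 8292 CPM with HFD and 3669.9, 2447, 5076, 4189.9 and 3162 CPM with glutamine, with a fold change of -1.45 ± 0.71 (SE, edgeR adjusted p = 0.243). The 2 highest libraries were HFD 14_17 and 23_28, and the other 2 HFD libraries lay inside the glutamine range or below it. Its neighbour Hbb-bt is a near-identical copy, so the split of reads between them is uncertain. Of 9 erythroid genes tested 8 were lower and 1 higher, none called, at a median of -0.97 relative to all genes (-1.70 to -0.66 over 5 scalings, -1.55 without HFD 5_11 to 0.25 without HFD 14_17).

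Serping1 was the one abundant gene with every HFD library above every glutamine library. It encodes the C1 inhibitor, a serpin that restrains complement and contact activation (chromosome 2, 84765387 to 84775444). Its levels were 1987, 1103, 1261 and 1976 CPM with HFD and 799.6, 358, 17.2, 502 and 14.7 CPM with glutamine. The lowest HFD value lay above the highest glutamine value, and 2 glutamine libraries, the unnumbered one and 25_27, were under 20 CPM. The fold change was -3.21 ± 1.32 (SE, edgeR adjusted p = 0.197). The exact permutation p was 0.0159, the smallest possible, which restates that the arms do not overlap. DESeq2 called it (adjusted p = 0.00709), 1 of the 727 genes it called over all 6041 tested.

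Sod1 was the one abundant gene with every glutamine library above every HFD library. It encodes the cytosolic copper-zinc superoxide dismutase (chromosome 16, 90220754 to 90226329). Its levels were 665, 689, 394 and 3.97 CPM with HFD and 2759, 1110.5, 1989.5, 872 and 966 CPM with glutamine, with HFD 23_28 near the floor. The fold change was 1.73 ± 1.35 (SE, edgeR adjusted p = 0.573) and the exact permutation p 0.0159, which again restates that the arms do not overlap. Scaf4 overlaps Sod1 on the opposite strand, and without a stated strand setting their reads cannot be told apart. Of 16 glutathione and antioxidant genes 12 were tested, 3 higher and 9 lower, so the direction of Sod1 was not that of most of the list. Gpx1, a glutathione peroxidase, and Prdx2, a peroxiredoxin, had fold changes of -0.99 ± 1.51 and -1.30 ± 1.48.

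**Figure D4:**
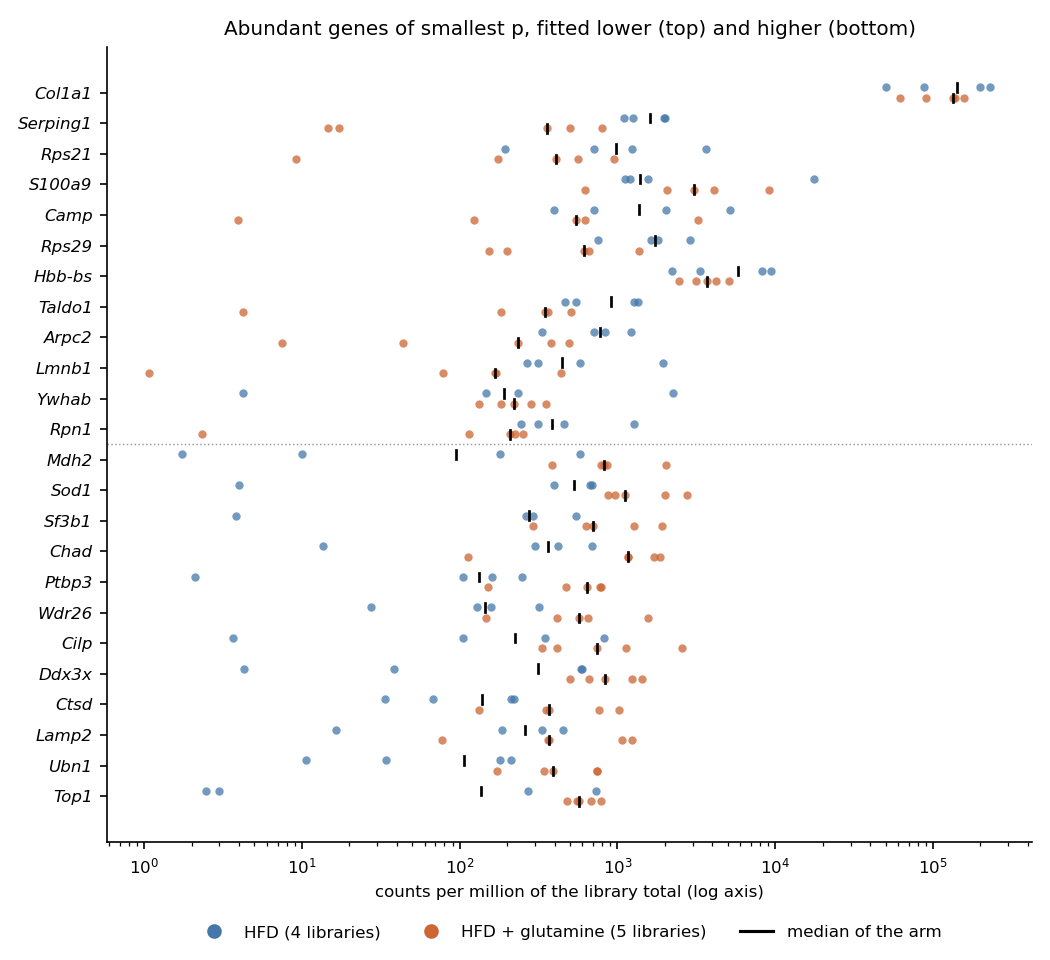
CPM in each marrow library (log axis) of the 12 abundant genes per direction with the smallest unadjusted p, fitted lower (above the dotted line) and higher (below it) with glutamine, HFD in blue, glutamine in orange, bars at arm medians. Among these 24 the arms separate only for Serping1 and Sod1, and several genes have single libraries under 10 CPM.

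Other abundant genes fitted lower with glutamine served ribosomes, sugar metabolism, actin, the nuclear envelope and glycosylation. Rps29 and Rps21, small-subunit ribosomal proteins, were both highest in HFD 23_28. Rps29 had 754, 1803, 1640.1 and 2890.5 CPM with HFD and 154, 199, 612, 662 and 1375 CPM with glutamine. Rps21 had 1239, 714, 195 and 3621 CPM and 953, 175, 9.12, 565 and 406 CPM. The arms overlapped for both, and the fold changes were -2.38 ± 1.17 and -3.03 ± 1.27 (SE, edgeR adjusted p = 0.242 and 0.197). Without HFD 23_28 Rps21 stood at -1.09. Not all ribosomal genes were lower. Rps25 and Rpl31 had fold changes of 0.85 ± 1.35 and 0.37 ± 1.52 (SE), each with an exact permutation p of 0.0317, as had Rps29. Of the small-subunit genes tested 8 were higher and 23 lower, and of the large-subunit genes 12 and 32, beside 78 and 222 of the 300 abundant genes. Counts of ribosomal protein genes are uncertain, since pseudogene copies share their sequence. Taldo1, the transaldolase of the pentose phosphate pathway, had 463, 542, 1270.2 and 1347 CPM and 182, 361, 4.21, 347 and 509.7 CPM, lower in the glutamine arm except for 25_27, which lay above HFD 1_3. Its fold change was -2.84 ± 1.46, and DESeq2 called it (adjusted p = 0.0216), 1 of the 8 abundant genes it called.

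Arpc2, a subunit of the actin-branching ARP2/3 complex, had 333, 712, 829 and 1227 CPM with HFD and 233, 7.52, 43.5, 378 and 492 CPM with glutamine, a fold change of -2.88 ± 1.54 (SE). DESeq2 called it (adjusted p = 0.0170). Lmnb1, lamin B1 of the nuclear envelope, had 581, 268, 311 and 1936 CPM and 1.08, 78.9, 441, 169 and 167 CPM. Rpn1, ribophorin 1 of the oligosaccharyltransferase, had 458, 246, 314 and 1264 CPM and 114, 208, 2.31, 225 and 251 CPM, and DESeq2 called it too (adjusted p = 0.0183). In each of these 3 the highest library was HFD 23_28 and the lowest a glutamine library at under 10 CPM. Ywhab, a 14-3-3 signalling adaptor, was different: its glutamine values of 133 to 354 CPM lay within the HFD range of 4.21 to 2249.8 CPM, and without HFD 23_28 its fold change turned from -2.76 to 0.82.

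Abundant genes fitted higher with glutamine included a citric acid cycle enzyme, splicing and RNA-helicase genes and lysosomal genes. None of the 12 passed (edgeR adjusted p from 0.365 to 0.775). Mdh2, mitochondrial malate dehydrogenase (chromosome 5, 135778480 to 135790398), had 579, 179.5, 10.1 and 1.74 CPM with HFD and 859, 385, 2031, 783 and 822 CPM with glutamine. Of the HFD libraries 3 lay below every glutamine library, and 1_3 lay above glutamine 10_12. The fold change was 2.78 ± 1.62 (SE, exact permutation p = 0.0317), and DESeq2 called it (adjusted p = 0.0333). It was the one member of the citric acid cycle list among the abundant genes. Of 13 genes of that cycle tested, 4 were higher and 9 lower, at a median of -1.15 relative to all genes (-1.35 to -0.74 over 5 scalings, -1.89 without HFD 14_17 to -0.43 without HFD 5_11).

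Sf3b1, the core spliceosome subunit that recognizes the branch point, had 262, 547, 289 and 3.82 CPM with HFD and 634, 702, 1924, 291 and 1279.6 CPM with glutamine. Ddx3x, an RNA helicase of translation initiation, had 588, 598, 38.2 and 4.32 CPM and 1425, 838, 663, 500.0 and 1245 CPM. Top1, DNA topoisomerase I, had 272, 732, 2.46 and 2.98 CPM and 569, 678, 786, 479 and 552 CPM. Every glutamine library held at least 291 CPM of each of these, while 1 or 2 HFD libraries, 23_28 among them, stood below 40 CPM. The fold changes were 1.84 ± 1.51, 1.64 ± 1.60 and 1.45 ± 1.73 (SE). Ptbp3, a splicing regulator, Wdr26, part of a ubiquitin ligase, and Ubn1, a histone chaperone subunit, had fold changes of 2.06 ± 1.86, 1.82 ± 1.66 and 1.56 ± 1.85.

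Lysosomal genes were more often fitted higher, without any call. Ctsd, the aspartic protease cathepsin D, had 209.8, 67.9, 219 and 33.7 CPM with HFD and 1027, 369, 767, 354 and 132 CPM with glutamine, so 4 of 5 glutamine libraries lay above all HFD libraries. Its fold change was 1.64 ± 1.82 (SE, exact permutation p = 0.0476). Lamp2, a lysosomal membrane protein, had a fold change of 1.47 ± 1.65. Of 19 lysosome and proton pump genes 15 were tested, 9 higher and 6 lower, at a median of 1.23 relative to all genes (0.53 to 1.23 over 5 scalings, 0.53 without HFD 5_11 to 1.59 without glutamine 18_20). Without the 2 libraries with the fewest captured genes it was 0.21.

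The 6 called genes with names were low in most libraries and high in 1 to 3 of the HFD arm. Ndufa7, which belongs to complex I of the respiratory chain (chromosome 17, 33824572 to 33838317), had 1.03, 24.6, 304 and 1626 CPM with HFD and 1.12, 1.22, 1.01, 0.994 and 0.520 CPM with glutamine. Nt5e, the ectoenzyme CD73 that makes adenosine (chromosome 9, 88327197 to 88372092), had 109, 18.2, 0.321 and 1385 CPM and 0.301, 0.787, 0.415, 2.85 and 0.228 CPM. For both, the highest 3 libraries were of the HFD arm, and 1 HFD library lay among the glutamine ones. Fold changes were -10.17 ± 2.29 and -10.19 ± 2.48 (SE, edgeR adjusted p = 0.0378 each).

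Mkl1, a coactivator of serum response factor that reads the state of actin, had 180.3, 0.173, 0.357 and 1086 CPM with HFD and 0.301, 0.644, 0.415, 0.289 and 0.390 CPM with glutamine (fold change -10.69 ± 2.68, edgeR adjusted p = 0.0498). Frmd8, a partner of the iRhom proteins, had 0.974, 0.748, 755 and 1724 CPM and 0.473, 1.86, 0.711, 24.3 and 1.14 CPM. Snx14, a sorting nexin, and Cdca5, the cohesion factor sororin, were captured in HFD 23_28 alone of the HFD arm, at 1226 and 2218 CPM, and the other 3 HFD libraries held at most 0.500 and 0.607 CPM. HFD 23_28 was the highest library for all 6. Without it none of the 8 passed, and Cdca5 turned to 2.69. The library with the fewest captured genes thus held the top value of each named call. Frmd8 has an antisense partner and Snx14 overlaps 2 other gene models, which adds to the uncertainty of their counts.

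In visceral fat the same 6 genes were read in both arms, and they are given side by side here with no test against marrow. Ndufa7 had 68.1 ± 29.8 CPM with HFD (SD, n = 4) and 77.1 ± 11.0 CPM with glutamine (SD, n = 5). Nt5e had 20.6 ± 11.7 CPM with HFD (SD, n = 4) and 19.5 ± 8.54 CPM with glutamine (SD, n = 5). Mkl1 had 15.9 ± 8.68 CPM with HFD (SD, n = 4) and 20.8 ± 5.42 CPM with glutamine (SD, n = 5). Frmd8 had 38.6 ± 26.3 CPM with HFD (SD, n = 4) and 44.2 ± 17.7 CPM with glutamine (SD, n = 5). Snx14 had 39.3 ± 20.1 CPM with HFD (SD, n = 4) and 20.9 ± 10.7 CPM with glutamine (SD, n = 5). Cdca5 had 4.98 ± 7.80 CPM with HFD (SD, n = 4) and 3.52 ± 3.58 CPM with glutamine (SD, n = 5).

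Some genes were captured throughout one arm and almost nowhere in the other. Captured in every HFD library and at most 1 glutamine library were 11 genes (0.182% of those tested), and in every glutamine library and at most 1 HFD library 33 (0.546%). No gene was captured in all HFD libraries and no glutamine library, while 5 were captured in all glutamine libraries and no HFD library. None of the 44 was called, and their smallest edgeR adjusted p was 0.197. These genes were chosen on the difference described, so their values are given as a description.

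Anxa5 led those of the HFD arm. It encodes annexin A5, a calcium-dependent binder of phosphatidylserine (chromosome 3, 36448923 to 36475894). It had 565, 299, 613 and 612 CPM with HFD and 2.93, 5.30, 4.50, 70.2 and 2.08 CPM with glutamine. The lowest HFD value lay above the highest glutamine value, which was that of 18_20, the library with the most captured genes. Aspn, asporin, a small leucine-rich proteoglycan of collagen fibrils, had 216, 219, 138 and 297 CPM and 0.775, 2.72, 1.36, 6.51 and 1.11 CPM. It lies opposite Cenpp, and reads of the pair cannot be told apart if strand was not used in counting. Ppp2r1b, a scaffold subunit of protein phosphatase 2A, had 553, 136, 219 and 1088 CPM and 0.646, 95.6, 0.474, 0.705 and 1.24 CPM. Fcer1g, the shared gamma chain of Fc receptors on myeloid cells, had 26.2, 2.99, 52.2 and 157 CPM and 0.258, 0.429, 0.296, 0.160 and 12.4 CPM. Orc6, of the origin recognition complex, Maged2, Tmem261 and Dido1 completed the 8 of smallest p, at HFD medians of 172, 85.6, 164 and 166 CPM and glutamine medians of 0.573, 0.861, 0.474 and 1.01 CPM. Sik2 overlaps Ppp2r1b and Vps35 overlaps Orc6 on the opposite strand, with the same limit as for Aspn.

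The 5 genes captured in all glutamine libraries and no HFD library were Lrrc59, Zbtb44, Pdp2, Tmem123 and Mrpl12. Lrrc59, an endoplasmic reticulum protein that binds ribosomes (chromosome 11, 94629767 to 94645216), had 0.684, 0.892, 0.893 and 0.695 CPM with HFD and 19.5, 277, 1072, 274 and 233 CPM with glutamine. Pdp2, a phosphatase that switches on pyruvate dehydrogenase (chromosome 8, 104591451 to 104599026), had 0.184, 0.345, 0.286 and 0.199 CPM and 122, 98.1, 402, 35.8 and 41.5 CPM. Mrpl12, a protein of the mitochondrial ribosome, had 0.632, 0.288, 0.500 and 0.497 CPM and 6.84, 149, 243, 113 and 206 CPM. Zbtb44, a zinc finger protein, had 0.448, 0.115, 0.429 and 0.497 CPM and 68.4, 39.9, 509, 97.5 and 196 CPM, and Tmem123, a membrane mucin, 1.00, 0.575, 1.46 and 0.894 CPM and 294, 79.0, 300.1, 32.8 and 745 CPM. In the HFD arm the highest value of the 5 was 1.46 CPM. Lrrc59 overlaps Eme1 on the opposite strand. The fitted fold changes of these 5, from 7.58 to 8.99, depend on the prior count.

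Itga4, the integrin alpha 4 chain that binds VCAM1, Usp1, a deubiquitinase of DNA repair, and Arl5a, a small GTPase of the Golgi, were captured in all glutamine libraries and 1 HFD library. In each of them that library was HFD 5_11, the one with the most captured genes of its arm. Itga4 had 0.421, 86.9, 0.500 and 0.447 CPM with HFD and 300.4, 108, 1285, 57.9 and 192 CPM with glutamine. Cerkl overlaps Itga4 on the opposite strand. Arl5a reached 95.9 CPM in HFD 5_11, above 3 of its 5 glutamine values. Captured genes per library overlapped between the arms, from 1755 to 4257 for HFD and from 1831 to 7323 for glutamine, and the part of capture in these differences was not tested.

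**Figure D5:**
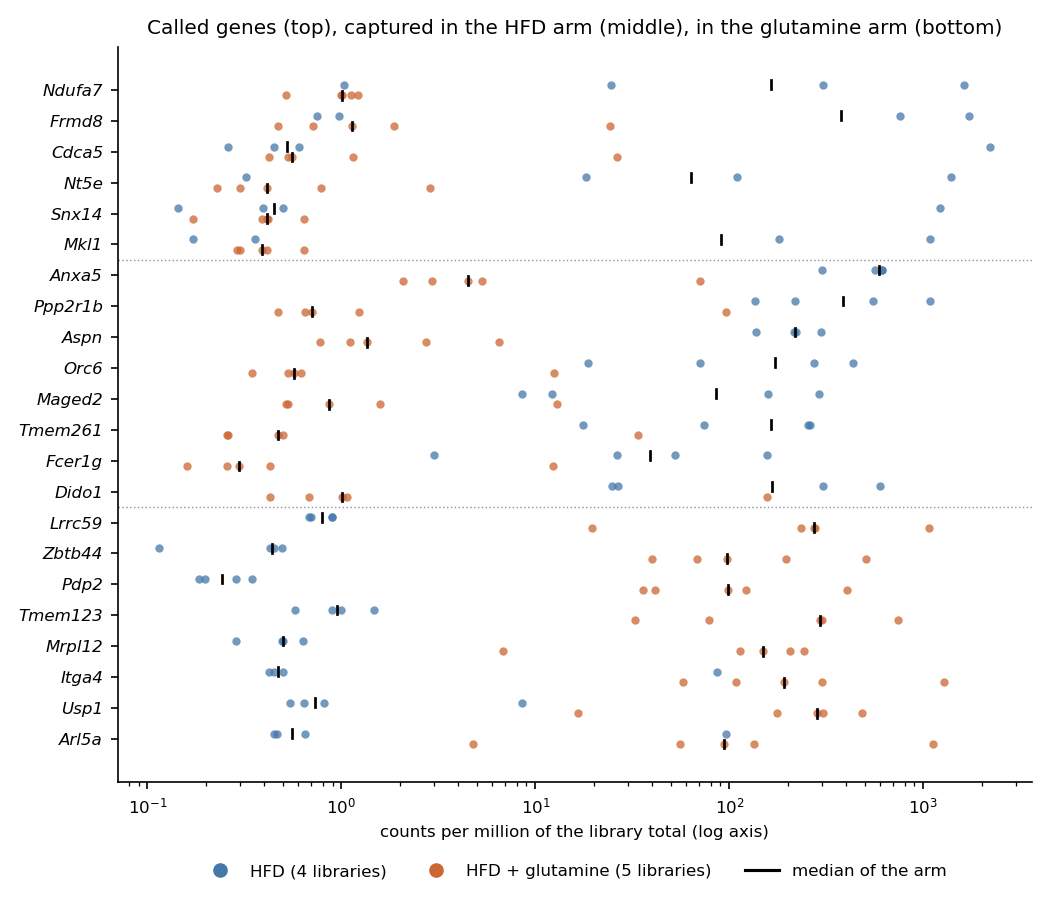
CPM in each marrow library (log axis) of the 6 called named genes (top), the 8 genes of smallest p captured in every HFD library and at most 1 glutamine library (middle) and the 8 captured in every glutamine library and at most 1 HFD library (bottom), HFD in blue, glutamine in orange, bars at arm medians. Each called gene has 1 to 3 HFD libraries at the level of glutamine ones and HFD 23_28 as its highest point.

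Genes that handle glutamine were thinly captured. Of 16 genes of glutamine and glutamate metabolism 10 were tested, 6 higher and 4 lower, none called, at a median of 1.53 relative to all genes (0.93 to 1.53 over 5 scalings, 0.28 without glutamine 25_27 to 1.81 without glutamine 10_12), and none was captured in all 9 libraries. Glud1, glutamate dehydrogenase, had 1.82, 142, 27.8 and 267 CPM with HFD and 1.38, 1.72, 1.78, 72.7 and 173 CPM with glutamine. Ppat, which spends glutamine on purine synthesis, had 176, 0.230, 35.9 and 0.397 CPM and 0.344, 167, 0.592, 60.4 and 744 CPM, and Gfpt1, which spends it on hexosamines, 0.658, 444, 7.61 and 0.447 CPM and 84.3, 362, 1.54, 77.0 and 0.846 CPM. High and near-floor libraries occurred in both arms for these 3.

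Of 10 neutral amino acid transporters 5 were tested, 1 higher and 4 lower, none called. Their median relative to all genes was -1.17 (-3.33 to -1.17 over 5 scalings). Over the fits without 1 library it ran from -2.36 without glutamine 10_12 to -0.64 without glutamine 18_20. Slc38a2, the sodium-coupled transporter SNAT2, had 692, 1236, 281 and 595 CPM with HFD and 226, 1228, 4.26, 278 and 327 CPM with glutamine, a fold change of -1.39 ± 1.54 (SE). The summed level of the 10 transporters was 1701, 1868, 1078 and 1332 CPM with HFD and 329, 1508, 231, 929.9 and 476 CPM with glutamine. The part of Slc38a2 in it varied, from 4.26 of 231 CPM in the unnumbered glutamine library to 1228 of 1508 CPM in glutamine 10_12. Among the ATF4 targets that answer amino acid shortage, 11 of 17 were tested, 6 higher and 5 lower, and Atf4 itself had a fold change of -0.37 ± 1.33.

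Ribosomal and respiratory genes were the largest groups tested, with 1 call. Of 32 small-subunit ribosomal protein genes 31 were tested, 8 higher and 23 lower, and of 45 large-subunit genes 44, 12 higher and 32 lower, none called. Their medians relative to all genes were -0.40 (-0.84 to -0.17 over 5 scalings) and -0.45 (-1.49 to -0.08). Both were near the -0.41 (-1.01 to -0.25) of the 300 abundant genes, among which were 18 small-subunit and 29 large-subunit genes. Over the fits without 1 library the small-subunit median ran from -0.85 without HFD 1_3 to -0.10 without glutamine 10_12. The large-subunit median ran from -0.93 without HFD 1_3 to -0.06 without HFD 23_28, and without the 2 libraries with the fewest captured genes it turned to 0.22. Of 58 nuclear genes of the respiratory chain 51 were tested, 29 higher and 22 lower, and 1 was called, Ndufa7, beside 0.132% called over all genes tested. Their median was 0.37 relative to all genes (0.22 to 0.53 over 5 scalings, -0.10 without HFD 23_28 to 0.67 without HFD 5_11), so leaving out HFD 23_28 turned its sign. Of 15 mitochondrially encoded genes 8 were tested, 4 in each direction.

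Division genes were fitted mostly lower, again with HFD 23_28 highest. Mki67, the Ki-67 antigen of cycling cells, had 737, 719, 85.7 and 2078 CPM with HFD and 487, 560.1, 1212, 411 and 1113 CPM with glutamine, and Top2a, topoisomerase II alpha, 1097, 564, 208 and 1933 CPM and 1109, 755, 578, 664 and 775 CPM. Of 16 mitosis genes tested 6 were higher and 10 lower, and 1 was called, Cdca5, beside 0.132% called over all genes tested. Of 13 DNA replication genes 3 were higher and 10 lower, none called. Relative to all genes the median of the mitosis genes was -0.33 (-1.01 to -0.33 over 5 scalings, -0.95 without HFD 14_17 to 0.21 without HFD 23_28). That of the replication genes was -1.04 (-3.03 to -0.68 over 5 scalings, -1.74 without HFD 1_3 to -0.36 without HFD 23_28), and 0.05 without the 2 libraries with the fewest captured genes. The neutrophil marker sum of HFD 23_28, given above, moved with these genes, and its part in them was not tested.

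The cholesterol and WNT genes that were tested were mostly fitted higher, from few genes at low counts. Of 17 cholesterol synthesis and uptake genes 6 were tested, all higher, at 3.46 relative to all genes (2.94 to 3.87 over 5 scalings, 1.20 without glutamine 4_6 to 5.86 without HFD 5_11), with none called and none captured in all libraries. Hmgcs1, which makes the mevalonate precursor, had 0.500, 58.5, 0.750 and 0.596 CPM with HFD and 224, 6.87, 1.24, 8.43 and 1.14 CPM with glutamine. Msmo1, a sterol demethylase, had 0.474, 12.6, 0.321 and 0.447 CPM and 436, 1.50, 0.474, 30.4 and 1.17 CPM, and in both genes glutamine 4_6 was the highest library. Of 18 WNT genes 7 were tested, 6 higher and 1 lower, and the lower one was Ctnnb1, beta-catenin, the abundant member, at -1.09 ± 1.32 (SE). The WNT median was 3.43 relative to all genes (2.01 to 3.43 over 5 scalings, 1.07 without glutamine 10_12 to 3.88 without the unnumbered glutamine library). A gene enters these counts only if enough libraries, of whichever arm, hold it, so members that passed the filter do not stand for the whole list.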

How the data were processed

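RNA of 9 marrow libraries was counted per gene near its 3′ end from 30 ng of total RNA (quality number above 7), per the labels' protocols, with no molecular identifiers named. The deposited counts are whole numbers with differing totals and show no normalization. Tools named per the submitters' processing notes were FastQC 0.12.1, STAR 2.7.10b and HTSeq 0.11.3, with the genome build GRCm38. Annotation, strand setting and duplicate handling were not given in the sources used here. Counts of genes that overlap another on the opposite strand are therefore uncertain, and not every such gene is pointed out above. Of 46983 gene names, 40115 matched GENCODE M21 directly, 4029 after restoring altered characters and 2839 not at all. Positions are 1-based.

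Arms were compared with edgeR 4.0.16 in R 4.3.3 (filterByExpr, TMM factors, quasi-likelihood F test, two-sided, Benjamini-Hochberg over all genes tested, called under 0.05), on marrow libraries only and without covariates. The SE is the absolute log2 fold change over the square root of F. CPM values are relative to library totals. Permutation tests used log2(CPM + 1). The fit was tested on simulated counts. With a dispersion of 0.1 in every gene it recovered 100% of 4-fold and of 16-fold changes, with 5 false calls. With the fitted dispersion of each gene (median 3.32) it recovered 0% of both sizes, with 0 false calls.

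Named genes were the called genes with a name, the 20 most abundant, the 12 abundant genes of smallest unadjusted p per direction, up to 8 per direction captured in every library of 1 arm and at most 1 of the other, and, of each list, its abundant members or else its 3 most abundant. Unnamed gene models were counted only. Members and lists were chosen with earlier results of these data known. Alternatives were other scalings (relative log expression, upper quartile, totals, abundant genes), filters, DESeq2 1.42.0, limma-voom 3.58.1, a robust fit, the abundant genes alone, counts under 100 set to 0, and leaving out libraries.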

Additional observations from a re-analysis of the deposited data

Results flagged for a closer look

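A single library stood apart from the rest of its arm in 26 of 126 groups, 63 genes in 2 arms each. Its gap to the next library in log2(CPM + 1), as a share of the arm's range, was then above Dixon's critical value. Chance flags about 1 in 20 groups only if values are normally distributed, which was not tested for these. The genes were also named for their differences, so the groups are not independent of that choice. Of the 26, 7 fell in glutamine library 18_20, 5 in HFD 23_28 and 5 in HFD 5_11, the other 9 in 4 glutamine libraries. In HFD 23_28 the highest values of the arm were 2218 CPM of Cdca5, 1226 CPM of Snx14 and 17730 CPM of S100a9, and the lowest 3.97 CPM of Sod1 and 3.82 CPM of Sf3b1.

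In the HFD arm, library 5_11 held the lowest Anxa5 at 299 CPM and Zbtb44 at 0.115 CPM, and the highest Itga4 at 86.9 CPM, Usp1 at 8.55 CPM and Arl5a at 95.9 CPM. In the glutamine arm, library 18_20 was highest in Cdca5 at 26.5 CPM, Frmd8 at 24.3 CPM, Anxa5 at 70.2 CPM, Orc6 at 12.5 CPM, Maged2 at 12.9 CPM, Tmem261 at 33.8 CPM and Dido1 at 156 CPM. That library also had the most captured genes, 7323.

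Library 25_27 of the glutamine arm was lowest in Ndufa7 at 0.520 CPM, Cxcl12 at 1464 CPM and Chad at 114 CPM, and highest in Fcer1g at 12.4 CPM. The unnumbered glutamine library was lowest in Taldo1 at 4.21 CPM and Rpn1 at 2.31 CPM. Glutamine 4_6 was highest in Rplp1 at 8834 CPM and lowest in Mrpl12 at 6.84 CPM, and glutamine 10_12 was highest in Ppp2r1b at 95.6 CPM.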

How the results depend on the processing

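The count of 8 calls among all genes tested changed with nearly every choice. It was 0 with relative log expression, upper-quartile, total-count and abundant-gene scaling, with the stricter filter, with the robust fit, in the fit on the abundant genes alone and with counts under 100 set to 0. Without a count filter it was 202, with DESeq2 727, of which 416 were higher and 311 lower, and with limma-voom 1. Among the 300 abundant genes the count of 0 was 8 with DESeq2, 1 with limma-voom and 2 without the 2 libraries with the fewest captured genes, and 0 in the other scaling, filter and fitting choices. Leaving out each library in turn gave 0 to 19 calls over all genes and 0 to 1 among the abundant genes, the 1 being Col1a1 without HFD 1_3, HFD 23_28 or the unnumbered glutamine library. All 8 calls were lost without HFD 23_28, where 2 other genes passed, and no gene passed without glutamine 4_6, 10_12, 18_20 or 25_27. Without HFD 1_3, 5_11 or 14_17 the count was 14, 14 and 19, and without the unnumbered glutamine library 16. The cause of these changes was not tested.

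Directions of the single genes turned in 9 of 932 recomputed values. Of 46 genes followed through the alternatives 26 moved by over 1.5 times in at least 1 fit without 1 library, 12 of them without HFD 23_28. Over the fits without 1 library Cdca5 ran from -10.88 to 2.69, S100a9 from -2.16 to 1.19 and Ywhab from -3.16 to 0.82, and in each only the fit without HFD 23_28 turned. Without the 2 libraries with the fewest captured genes Cdca5 stood at 2.86, S100a9 at 0.85, Ywhab at 0.82 and Cilp at -0.31. With limma-voom S100a9 stood at 0.31 and Ywhab at 0.51. Of the other values, 825 kept their direction and their side of the threshold, 74 no longer passed and 24 newly passed.

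No paired analysis was possible because the 2 marrow arms share 1 number only, the 17 of HFD 14_17 and of the unnumbered glutamine column, and no pair of numbers. With totals of 13970788 counts or more per library, the median standard error of the tested genes was 2.30 on the log2 scale.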
